A study of Homo sapiens with 4 samples.

Results

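The replication-dependent histone genes of chromosome 6 were examined for occupancy by BCL6, a zinc-finger repressor that keeps germinal centre B cells in their programme and is active in many lymphomas. They were taken from RefSeq (GRCh38.p14) as the protein-coding genes of chr6:25726063-27893891 whose symbols start with H1-, H2AC, H2BC, H3C or H4C. This gave 55 genes out of 19974 that code for protein on chromosomes 1 to 22 and X: 6 genes of the linker histone H1, 12 of H2A, 15 of H2B, 10 of H3 and 12 of H4. A BCL6 peak was counted for a gene when its summit, the highest point of the peak, lay within 1 kb of either annotated end. The genes were selected on this readout, because peaks were already known to crowd around them, so the counts and heights below are a description and carry no test.

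BCL6 was mapped by CUT&RUN in SUDHL5, a cell line established from a diffuse large B-cell lymphoma (DLBCL), so all libraries come from 1 line. The cells grew in RPMI with fetal bovine serum, and the labels name no compound, knockout or transgene for any of the 4 libraries. A BCL6 antibody was used for 2 libraries and normal rabbit IgG for the other 2, and IgG values were not analysed here. In CUT&RUN, permeable nuclei are given an antibody and then a nuclease tethered to it, which cuts out the nearby chromatin for sequencing. Each BCL6 library has its own peak list, and the labels call the libraries biological replicates. Each peak carries the authors' fold enrichment, a ratio of signal at the summit to local background, and a −log10 q. Read totals are unknown. The pileup, the number of fragments stacked at a summit, was worked out from the ratio and the −log10 p that the authors give.

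Replication-dependent histone genes supply the histones that package newly copied DNA in S phase. They are short and lack introns, and their mRNAs end in a stem-loop in place of a poly(A) tail. Most are packed in a few clusters, where H2A and H2B genes often sit head to head and share the space between their starts. Their transcription takes place in the histone locus body, a nuclear structure built around the coactivator NPAT.

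The promoters below show what the groups of genes look like in sequence. RefSeq gave a promoter and strand for 50 of the 55 genes, and none for H4C1, H4C3, H2AC12, H3C11 and H3C12. Each line holds the 250 bases before the annotated start, 5′ to 3′ on the gene's strand, in lower case, with motif matches in capitals. The motifs were TATAAA (letters of the TATA box), CCAAT (the box bound by NF-Y), ATTTGCAT (the octamer bound by POU2F1 and its relatives), GGTCCG (the end of site II of H4 promoters) and AAACACA (the H1 box). Matches on the opposite strand are also in capitals and read as the reverse complement. H1-3 at chr6:26234988-26235237 (minus strand) is shown because it had the highest fold enrichment among H1 genes. H4C11 at chr6:27823842-27824091 (plus) and H4C12 at chr6:27831561-27831810 (minus) are shown as nearly identical promoters that each had high peaks. H3C8 at chr6:26271414-26271663 (minus) and H2BC7 at chr6:26199266-26199515 (plus) stand for the H3 and H2B genes, and the H2BC7 sequence covers the space between the starts of the H2AC7/H2BC7 divergent pair. H1-6 at chr6:26108136-26108385 (minus) and H4C6 at chr6:26240143-26240392 (plus) are shown as genes of the same classes without a peak.
H1-3: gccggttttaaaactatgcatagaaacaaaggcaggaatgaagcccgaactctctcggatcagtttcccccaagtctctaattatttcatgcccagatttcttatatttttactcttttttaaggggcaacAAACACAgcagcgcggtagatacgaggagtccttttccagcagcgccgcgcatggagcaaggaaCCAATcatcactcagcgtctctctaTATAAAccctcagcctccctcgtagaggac
H1-6: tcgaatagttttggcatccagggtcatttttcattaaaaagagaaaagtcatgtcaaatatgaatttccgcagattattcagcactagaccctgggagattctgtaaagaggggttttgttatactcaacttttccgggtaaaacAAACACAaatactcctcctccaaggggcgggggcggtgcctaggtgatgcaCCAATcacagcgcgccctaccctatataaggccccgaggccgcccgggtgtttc
H4C11: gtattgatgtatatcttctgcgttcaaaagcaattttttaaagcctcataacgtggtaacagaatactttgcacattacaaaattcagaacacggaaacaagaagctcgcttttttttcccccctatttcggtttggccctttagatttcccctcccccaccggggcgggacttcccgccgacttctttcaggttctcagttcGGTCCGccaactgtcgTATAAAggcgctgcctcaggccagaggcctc
H4C12: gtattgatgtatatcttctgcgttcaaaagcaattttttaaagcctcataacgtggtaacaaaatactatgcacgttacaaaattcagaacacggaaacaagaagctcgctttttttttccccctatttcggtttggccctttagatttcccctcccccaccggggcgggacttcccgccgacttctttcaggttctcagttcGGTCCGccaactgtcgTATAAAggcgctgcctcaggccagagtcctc
H4C6: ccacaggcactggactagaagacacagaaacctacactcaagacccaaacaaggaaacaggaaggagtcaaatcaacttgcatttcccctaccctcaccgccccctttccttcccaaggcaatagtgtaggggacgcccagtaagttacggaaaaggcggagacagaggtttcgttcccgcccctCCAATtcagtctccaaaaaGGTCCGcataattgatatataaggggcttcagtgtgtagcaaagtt
H3C8: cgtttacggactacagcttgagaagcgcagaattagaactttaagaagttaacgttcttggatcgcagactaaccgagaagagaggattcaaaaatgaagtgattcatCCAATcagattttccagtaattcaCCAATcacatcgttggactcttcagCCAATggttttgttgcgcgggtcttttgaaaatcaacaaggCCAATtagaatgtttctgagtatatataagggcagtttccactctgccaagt
H2BC7: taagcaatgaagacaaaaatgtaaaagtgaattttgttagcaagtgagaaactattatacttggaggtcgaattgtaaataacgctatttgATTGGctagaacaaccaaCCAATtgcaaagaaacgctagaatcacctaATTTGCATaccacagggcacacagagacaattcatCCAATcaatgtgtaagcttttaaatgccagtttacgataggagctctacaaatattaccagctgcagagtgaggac

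The classes carried the promoter letters that bear their names. Both strands were searched from 250 bases before to 50 after each start, and motifs could overlap. The H1 box stood in 6 of 6 H1 promoters and in 4.29% of all 15812 protein-coding promoters. GGTCCG was present in 9 of 10 H4 promoters and in 14.1% of all promoters. The octamer stood in 9 of 11 H2A and 12 of 15 H2B promoters, in no H1, H3 or H4 promoter, and in 1.73% of all promoters. CCAAT was found in every H1, H2A, H2B and H3 promoter, in 3 of 10 H4 promoters and in 35.7% of all promoters. TATAAA stood in 66% of the histone promoters and 10.2% of all promoters. The median GC content was 42.5% in the histone promoters and 62.7% over all promoters.

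Letters of the kind that BCL6 is known to bind were rare in these windows. TTCCTAGAA was in 0 of 50 histone promoters and in 0.297% of all promoters. The shorter TTCNNNGAA, which STAT factors also recognise, was in 1 of 50, against 6.95% of all promoters. That match, TTCTGGGAA, lay 37 to 45 bases after the start of H1-3, where the first base of the gene counts as position 1. The summits mostly lay outside these windows, and the letters under the peaks themselves were not analysed here. The same letters were counted in genes with and without peaks. TATAAA was in 61.8% of 34 promoters of genes with a peak in each list and in 70% of 10 promoters of genes with none, CCAAT in 85.3% and 90%, the octamer in 35.3% and 50%, and the H1 box in 11.8% and 20%. GGTCCG went the other way, with 23.5% and 10%.

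Of the 55 histone genes, 40 (72.7%) had a BCL6 summit within 1 kb in replicate 1 and 44 (80%) in replicate 2. Among all protein-coding genes these shares were 8.4% and 6.27%. A peak in each list was found for 39 histone genes (70.9%), and for 2.79% of all protein-coding genes. The rule that picked the genes used these same peaks, so nothing is read from these shares. For 35 genes the peaks of both lists overlapped in a merged region. For H2AC6, H1-4, H2BC5 and H2BC8 each list had a summit within 1 kb, but not in the same merged region. In part this turned on where a summit fell. At each end of H2BC5 a merged region held peaks of both lists, with 4.26 and 5.76 near the start and 3.22 and 6.81 near the 3′ end. The replicate 2 peak of H2AC6 overlapped a replicate 1 peak (2.88 and 3.60) with its summit too far away to count.

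A summit within 1 kb in 1 list only was found for 6 genes, and 5 of these encode H2B. In replicate 2 alone, H2BC12 had a fold enrichment of 5.91, at a peak nearer to H4C9 in a merged region that also holds the replicate 1 peak of H4C9. Also in replicate 2 alone, H2BC13 had a fold enrichment of 5.80, H2BC11 of 4.52 and H4C4 of 3.0. By this window H2BC4 had its peak in replicate 2 alone too, but that peak shares a merged region with a replicate 1 peak (2.88 and 3.60). The replicate 1 summits nearest to H2BC4 and H2BC11 lay 1010 and 1007 bp away, just outside the window. H2BC10 had its peak in replicate 1 alone, and its nearest replicate 2 summit lay 1199 bp away. No peak in either list was found for 10 genes: H2AC1, H2BC1, H1-1, H2BC3, H3C3, H1-6, H2BC6, H4C6, H4C7 and H2BC14. H1-6, H2AC1 and H2BC1 of this set are known as testis histones, a grouping made after the values were seen.

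The values of peaks close to the 1 kb limit were as follows. In replicate 1 the peaks just inside it lay 936 bp from H2AC17 and 984 bp from H2AC6, with fold enrichments of 3.64 and 2.82. Just outside, peaks lay 1007 bp from H2BC11, 1010 bp from H2BC4 and 1011 bp from H3C10, with fold enrichments of 2.92, 2.88 and 3.88. In replicate 2 the peaks just inside lay 980 bp from H3C4 (8.24) and 983 bp from H2AC14 (5.10), and the nearest outside lay 1075 bp from H3C4 (5.99) and 1231 bp from H2BC5 (6.81). Peaks on either side of the limit thus had fold enrichments in the same range.

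**Figure D1:**
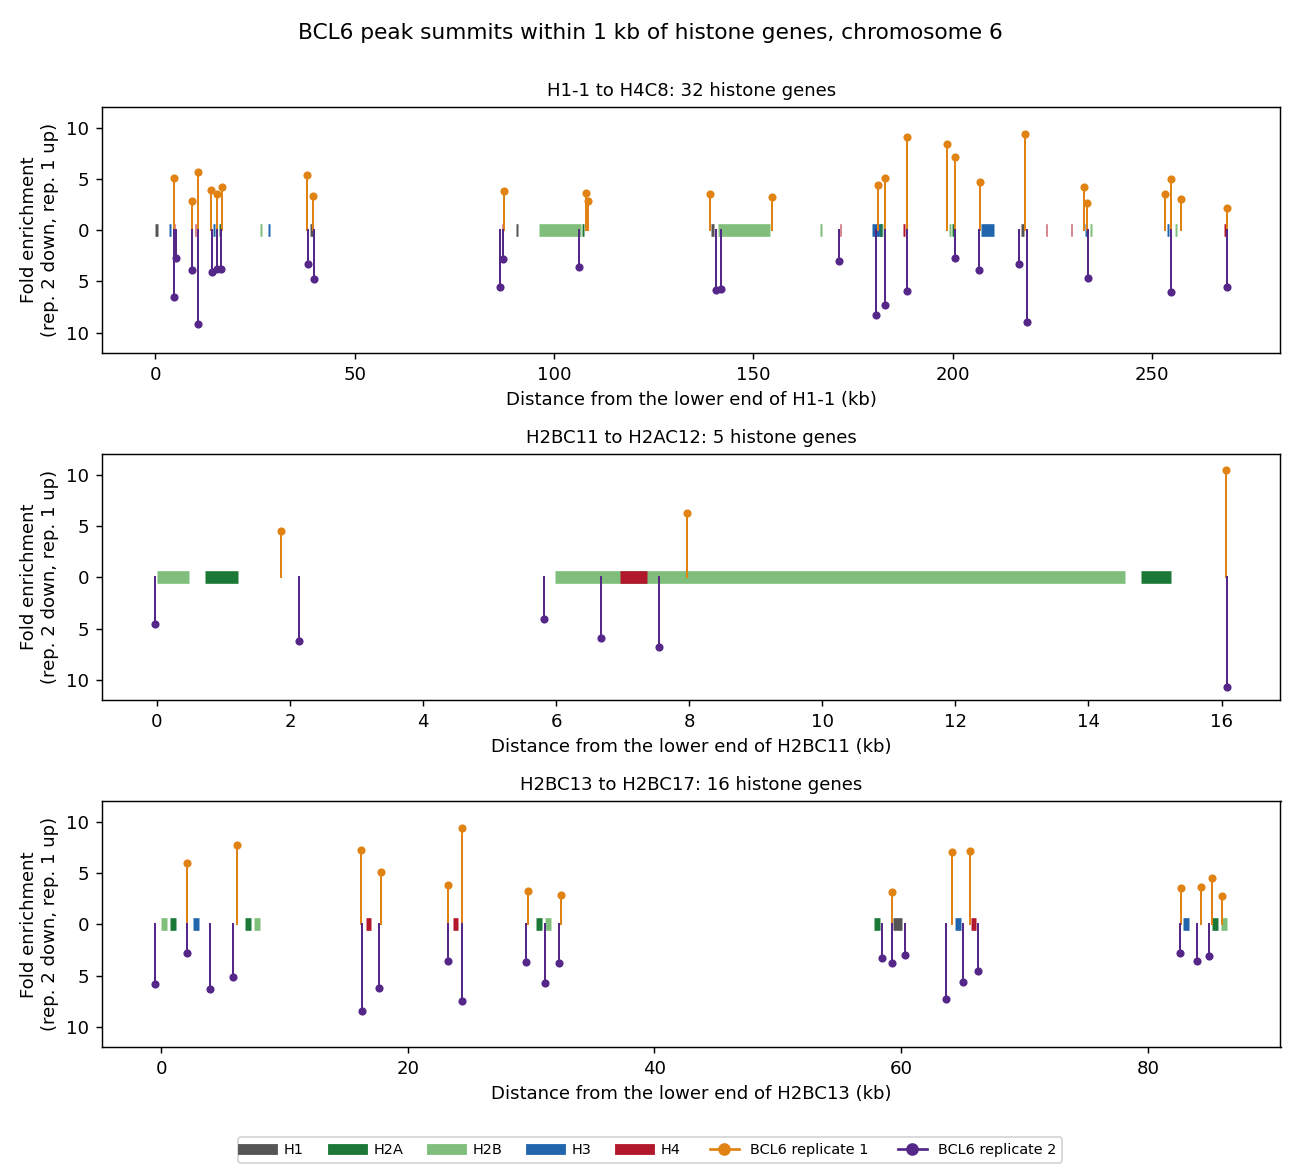
BCL6 summits along 3 runs of histone genes. Horizontal axes give kb from the lower end of the first gene, coloured blocks are genes by class, and each stem is a summit within 1 kb of a histone gene, with fold enrichment in replicate 1 upward and in replicate 2 downward. Most upward stems have a downward stem close by, and gaps without stems remain at H2BC3 and H3C3 and at H4C6 and H4C7.

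The genes fell into 4 runs separated by more than 200 kb. The lowest held only H2AC1 and H2BC1, at chr6:25726063-25727345, and had no peak; the nearest summit lay 265851 bp from H2AC1 in replicate 1 and 295073 bp in replicate 2. The largest run, H1-1 to H4C8 at chr6:26017032-26285534, spans 268.5 kb and holds 32 genes, of which 22 had a peak in each list. The third, H2BC11 to H2AC12 at chr6:27132316-27147562, holds 5 genes, and 3 had a peak in each list. The fourth, H2BC13 to H2BC17 at chr6:27807479-27893891, holds 16 genes, and 14 had a peak in each list, all of them overlapping.

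Peaks were dense over the last 3 runs. With 1 kb added to each end, replicate 1 had 14.0, 34.8 and 20.4 peaks per 100 kb in the runs of 32, 5 and 16 genes, and replicate 2 had 12.6, 52.2 and 23.8. The mean over all tiles of 100 kb on the chromosomes used was 0.173 and 0.116 in these lists. The tile with most peaks among those holding histone genes had 19 in replicate 1, rank 2 of 30292 tiles, and 22 in replicate 2, the highest count of any tile.

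By class, 4 of 6 H1, 11 of 12 H2A, 6 of 15 H2B, 9 of 10 H3 and 9 of 12 H4 genes had a peak in each list. As a share H2B was lowest in replicate 1, with 7 of 15, and level with H1 in replicate 2, with 10 of 15 beside 4 of 6. The low share of H2B depended on the 1 kb window, as described below for its genes. Neighbouring genes share peaks, so genes of a class are not independent. The strongest peak per gene had a median fold enrichment of 6.29 in replicate 1 and 6.23 in replicate 2 for H4, the highest medians of the 5 classes in each list. For H3 the medians were 5.03 and 6.05, for H1 4.46 and 5.29, for H2A 4.50 and 3.82, and for H2B 3.22 and 5.19. The ranges of the classes overlapped in each replicate: H4 genes spanned 2.15 to 9.36 in replicate 1, and H2A genes 3.19 to 10.4.

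**Figure D2:**
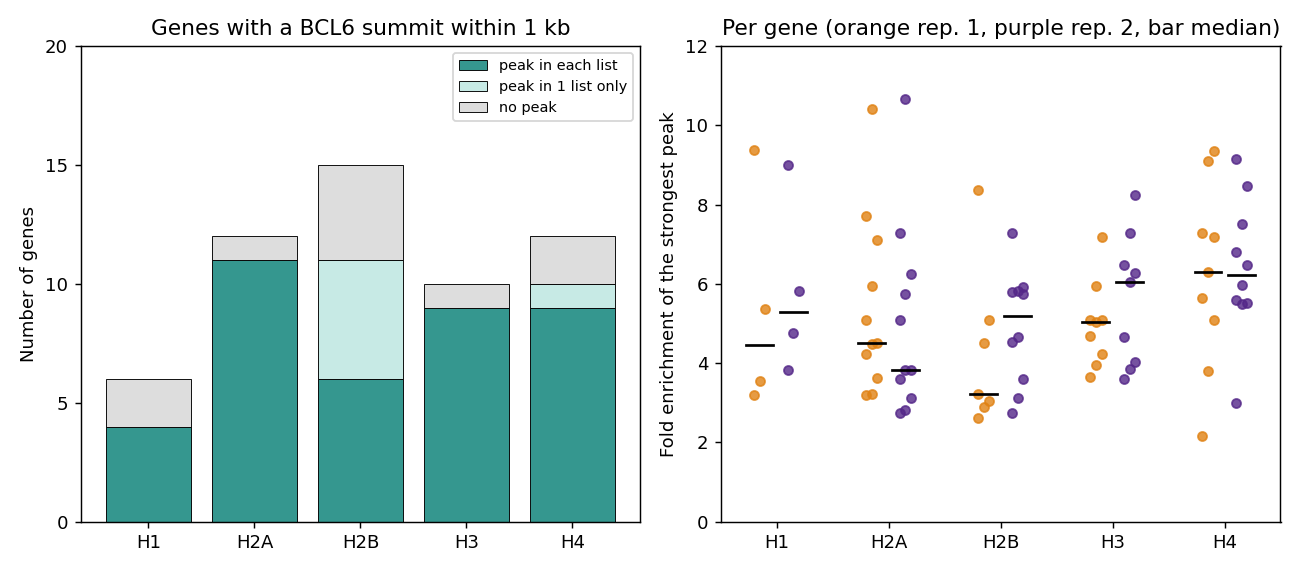
Peaks by histone class. The left panel stacks the number of genes with a peak in each list, in 1 list only or in none; the right panel plots the fold enrichment of each gene's strongest peak (points, orange replicate 1 and purple replicate 2) with the class median as a bar. Within the 1 kb window H2B has the fewest genes with a peak in each list for its size, 6 of 15, and the H4 medians of 6.29 and 6.23 are the highest.

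The 10 genes with the highest peaks, ranked by the smaller of both fold enrichments, were H2AC12, H1-3, H4C12, H4C11, H3C11, H4C9, H4C5, H3C10, H4C2 and H4C13. Among them 6 encode H4, the core histone with the fewest sequence variants. H4 makes up 12 of the 55 histone genes and 9 of the 39 with a peak in each list. These genes are not independent: H4C11 and H4C12 have nearly identical promoters, and H4C13 shares its replicate 1 peak with H3C11. A gene's value in each list is that of its strongest peak there, and these need not be at the same place. Of the 39 genes with a peak in each list, the strongest peaks overlapped at 27 and lay apart at 12: H1-2, H1-4, H2AC6, H2AC15, H2BC5, H2BC8, H2BC15, H3C4, H3C7, H3C10, H3C11 and H4C3. At these 12 the values in each list belong to different peaks.

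H2AC12, an H2A gene, had fold enrichments of 10.4 and 10.7 in replicates 1 and 2, with −log10 q of 28.6 and 30.8. Its peaks reached from chr6:27148200-27148851 in replicate 1 and chr6:27148228-27148901 in replicate 2, with pileups of 44 (exact Poisson 95% interval 32.0 to 59.1) and 47 (34.5 to 62.5). The summits were 11 bp apart, 824 and 835 bp from its upper end and outside it, in sequence that holds none of the 55 genes. The lists gave nearly the same height here.

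H1-3 encodes a linker histone, which binds DNA where it enters and leaves the nucleosome. Its fold enrichments were 9.37 and 9.0, with −log10 q of 29.5 and 20.9, pileups of 50 and 36, and summits 274 and 648 bp before the start. The peaks, chr6:26233922-26236452 and chr6:26234795-26236353, covered all of the H1-3 promoter printed above. H1-2 had peaks at both ends in each list, 5.36 and 3.33 past the 3′ end and 3.33 and 4.77 before the start. H1-4 had 3.56 before its start in replicate 1 and 5.81 past its 3′ end in replicate 2, and H1-5 had 3.19 and 3.82. H1-3 thus stood above the other H1 genes in each replicate.

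H4C12 and H4C11 are neighbours that face opposite ways. H4C12 had fold enrichments of 9.36 and 7.52, with summits 318 and 330 bp before the start at chr6:27831750-27832171 and chr6:27831753-27832218 and −log10 q of 21.8 and 13.9. H4C11 had 7.27 and 8.46, with summits 396 and 343 bp before the start at chr6:27823216-27823873 and chr6:27823147-27823916 and −log10 q of 11.5 and 11.9. Pileups were 36 and 28 at H4C12 and 23 and 20 at H4C11. The 250 bases before their starts were the same at 245 positions, 98%. Among 248 pairs of genes of a class, the median was 28.4%, and only H2AC13 with H2AC14 (82%) and H4C5 with H4C8 (61.6%) also reached 50%. How reads that map to several places were handled is not given in the sources used here, so peaks at such near-copies may share reads, and the values of these 6 genes are uncertain. The coding sequences of a histone class are also near-copies of each other, and the part of this in the results was not tested.

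Further H4 genes were high. H4C9 had 6.29 and 6.80 (−log10 q 12.5 and 13.8), with summits 610 and 181 bp past its 3′ end at chr6:27138654-27140482 and chr6:27139622-27140402. This gene lies within the long annotated span of H2BC12, so the summits are also inside that gene's span. H4C5 had 9.09 and 5.97 (22.8 and 13.9), 566 and 588 bp past the 3′ end at chr6:26204089-26206489 and chr6:26205477-26206319. H4C2 had 5.63 and 9.14 (22.1 and 26.6), 356 and 458 bp before its start at chr6:26027437-26028765 and chr6:26027388-26028740. Its pileup of 60 (45.8 to 77.2) in replicate 1 was the highest of any histone gene peak, while replicate 2 had 46 (33.7 to 61.4). H4C13 had 7.19 and 5.58 (18.9 and 16.5), 70 and 630 bp past the 3′ end at chr6:27872440-27873262 and chr6:27872440-27873134. The summit of this replicate 2 peak lies nearer to the H3 gene H3C11, 172 bp away. The replicates ordered these genes differently, with H4C5 above H4C2 in replicate 1 and below it in replicate 2.

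Other H4 genes spanned a wide range, from H4C8, with 2.15 in replicate 1 and 5.50 in replicate 2, to H4C1, with 5.08 and 6.49. H4C3 had 3.81 and 5.52. The low value of H4C8 in replicate 1 went with a local background of 15.7, the highest of any histone gene peak, since its pileup was 35 there and 28 in replicate 2.

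H3 genes encode the core histone whose tail carries most of the well-studied lysine marks. H3C11 had 7.19 and 7.28 (−log10 q 18.9 and 17.6), but its strongest peaks lay on different sides of the gene, at chr6:27872440-27873262 and chr6:27870578-27872023. The replicate 1 peak is the same as that of H4C13, its neighbour. In the merged region on the side of the replicate 2 peak, H3C11 had 7.01 and 7.28. H3C10 had 5.95 and 6.28 (11.7 and 15.1), 472 bp before the start at chr6:27808667-27809860 in replicate 1 and 892 bp past the 3′ end at chr6:27811017-27811783 in replicate 2. At each single place the lists differed more: the region before the start, which is also the H2AC13 peak, had 5.95 and 2.82, and the region past the 3′ end 3.88 and 6.28. H3C8 had 5.03 and 6.05, with summits 339 and 319 bp before the start. H3C1 shared its peaks with H4C1 at 5.08 and 6.49. H3C4 had 5.09 beyond the upper end of its long annotated span, the peak of H2AC7, and 8.24 inside that span, at different places. H3C7 had 4.23 past its 3′ end in replicate 1 and 4.65 before its start in replicate 2, and the region before the start that both lists share had 2.61 and 4.65. H3C2 had 3.95 and 4.04, H3C6 4.67 and 3.84, and H3C12 3.64 and 3.60. Of the 10 H3 genes only H3C3 had no peak in either list.

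H2A genes below H2AC12 were H2AC14 at 7.72 and 5.10, H2AC7 at 5.09 and 7.28, and H2AC11 at 4.49 and 6.24. Lower values were found at H2AC4 (4.22 and 3.82), H2AC6 (3.63 and 3.60), H2AC15 (3.22 and 5.73), H2AC16 (3.19 and 3.82) and H2AC17 (4.50 and 3.13). The H2AC16 values are those of the H1-5 peaks, with summits 938 and 951 bp from H2AC16. A nearer replicate 2 peak, 164 bp from H2AC16, had 3.25. The replicate 2 summit of H2AC15 lay inside its partner H2BC15, and H2AC17 shares its peaks with H2BC17. H2AC13 (5.95 and 2.82) and H2AC8 (7.09 and 2.74) differed most between the lists. At H2AC8 the replicates had pileups of 27 and 18 over backgrounds of 2.95 and 5.93.

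Within 1 kb, H2B had the lowest share of genes with a peak in each list, 6 of 15. This depended on the window. Within 2 kb, 45 histone genes had a summit in each list. The genes added were H2BC4, H2BC10, H2BC11, H2BC12, H2BC13 and H2BC14, all of class H2B, and H2B then no longer had the lowest share. H2BC7 had 5.09 and 7.28, the same peaks as its partner H2AC7. H2BC8 had 8.36 in replicate 1, 654 bp past its 3′ end, and 2.74 in replicate 2, 826 bp before its start. H2BC5 had 3.22 and 5.81, H2BC17 4.50 and 3.13, H2BC15 2.90 and 5.73, and H2BC9 2.61 and 4.65. For H2B the highest value of replicate 1 and the lowest of replicate 2 therefore came from the same gene, H2BC8.

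All peaks within 1 kb of these genes numbered 44 in replicate 1 and 51 in replicate 2. In replicate 1 their fold enrichment ran from 2.15 through a median of 4.32 to 10.4, against a median of 3.23 over 1447 other peaks near a protein-coding gene end. In replicate 2 it ran from 2.74 through 4.65 to 10.7, against 3.57 over 1057 peaks. The median pileup was 34 and 27, against 28 and 24, and the median local background 5.90 and 4.86, against 7.86 and 5.93. Over all peaks of each list the median fold enrichment was 3.55 and 3.74, the median pileup 23 and 21, and the median background 5.90 and 4.63. Against other peaks near a gene end the pileup was thus higher and the background lower in each list. Against all peaks the pileup was higher and the background was not lower. The peaks were also wider, with medians of 819 and 699 bp, against 468 and 452 bp.

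The lists overlapped at these genes. Of the histone gene peaks, 36 of 44 (81.8%) in replicate 1 and 42 of 51 (82.4%) in replicate 2 lay in a merged region with a peak of each list. Of the other peaks near a protein-coding gene end, 28.7% and 39.3% did. The histone gene peaks formed 56 merged regions, and 39 held each list. Their summits were 104 bp apart in the median, and within 200 bp in 24 regions. Over the 39 regions, which share their 2 libraries, the fold enrichments had a Pearson correlation of 0.573 and a Spearman correlation of 0.453, and the pileups a Spearman correlation of 0.769. Fold enrichment was higher in replicate 1 in 15 regions and higher in replicate 2 in 24.

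**Figure D3:**
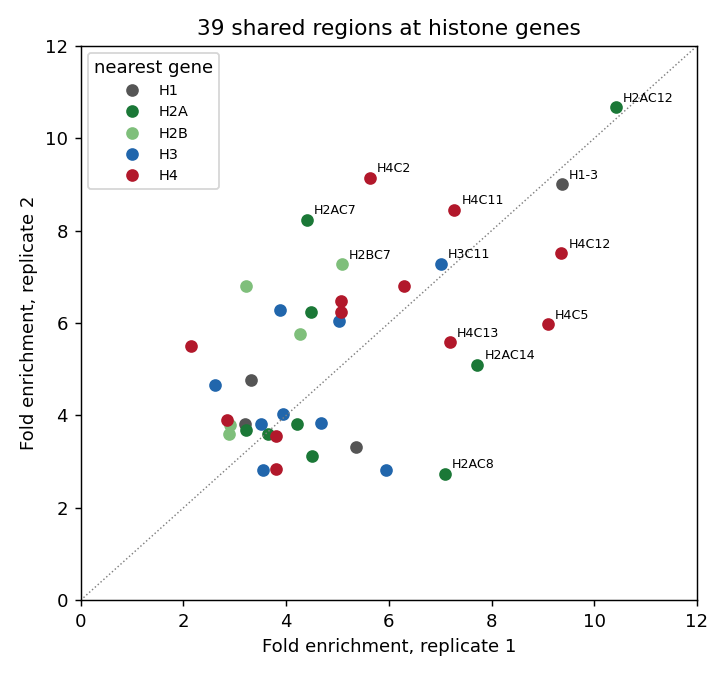
Fold enrichment in replicate 1 (horizontal) and replicate 2 (vertical) of the 39 merged regions with a histone gene peak and a peak of each list. In some of them, as at H2BC4, the summit of 1 list lies more than 1 kb from any histone gene end. Points are coloured by the class of the nearest histone gene and the dotted line marks equal values. H2AC12 and H1-3 are high in each replicate, and H2AC8 lies far below the line with 7.09 and 2.74.

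Summits kept mostly outside the genes. Each peak was given to the histone gene with the nearest end. Where its strand is known, 1 of 39 summits (2.56%) in replicate 1 and 5 of 42 (11.9%) in replicate 2 lay inside that gene. This leaves out summits at genes of unknown strand, among them those inside H4C1 in replicate 1 and H4C3 in replicate 2. Summits inside the long span of another histone gene, such as H3C4 or H2BC12, but nearer to a neighbour counted as outside. For other protein-coding genes, 62.1% of 1218 and 61.6% of 885 lay inside. Most of those genes are far longer than a histone gene, so a comparison with short genes was added after the values were seen. Of summits at other protein-coding genes under 1 kb long, 0 of 7 and 0 of 4 lay inside. The 50 histone genes under 1 kb long, of known strand or not, held 2 and 3 summits, or 0.0796 and 0.119 per kb. The 1 kb on either side of them held 0.508 and 0.559 per kb. Coding sequences of a class are near-copies, and how reads that map to several places were handled is not known. The part of this in the contrast was not tested.

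Many summits lay at the 3′ end. The nearest end was the 3′ end for 25 of 39 summits (64.1%) in replicate 1 and 23 of 42 (54.8%) in replicate 2, and for 6.08% and 4.18% of summits at other protein-coding genes. At the other genes under 1 kb it was the 3′ end for 3 of 7 and 0 of 4 summits. Summits before the start lay a median of 307 and 330 bp away, and those past the 3′ end a median of 566 and 471.5 bp. The share near the 3′ end was higher for H2A, with 9 of 10 and 6 of 7, than for H3, with 3 of 8 in each replicate. Most H2A genes sit head to head with an H2B gene. There the layout alone makes a 3′ end the nearest end of the pair for any summit outside it. In clusters this dense, sequence past the 3′ end of a gene can also lie before the start of the next.

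**Figure D4:**
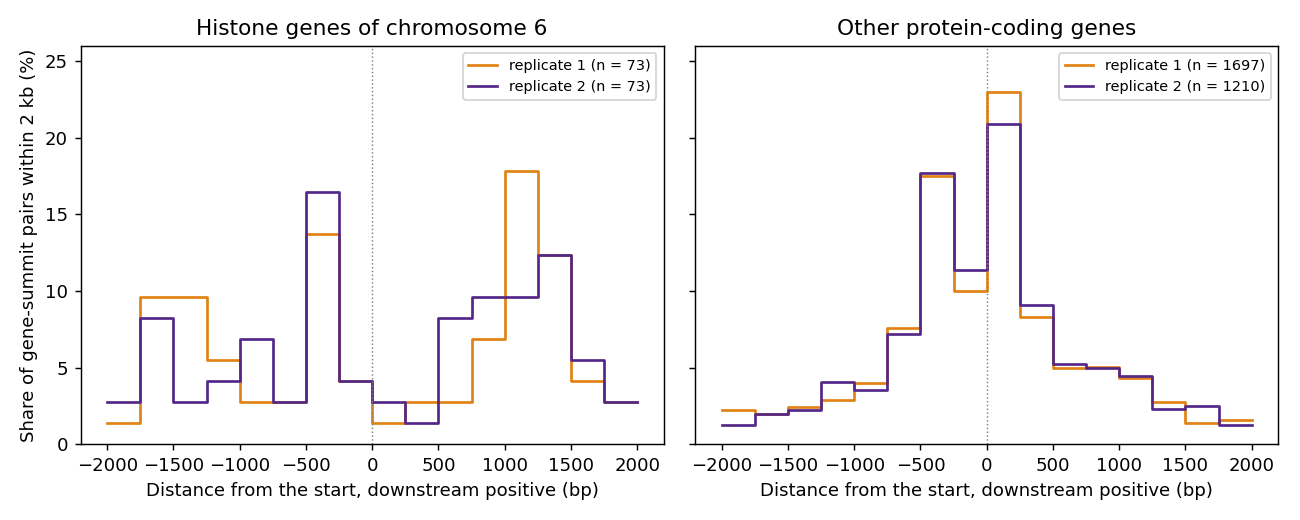
Summits around transcription starts. The horizontal axis is distance from the start in bp (downstream positive, bins of 250 bp) and the vertical axis the share of gene-summit pairs within 2 kb, for histone genes (left, 73 pairs in each replicate) and other protein-coding genes (right). Histone genes have few gene-summit pairs from 0 to 500 bp, where other genes have their highest bin.

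Around the start, gene-summit pairs were counted, so a summit near several starts counts once for each. The histone genes had 10 such pairs in replicate 1 and 12 in replicate 2 between 500 and 250 bp upstream. Only 3 in each replicate lay in the first 250 bp upstream, and 1 and 2 in the first 250 bp downstream. From 1000 to 1250 bp downstream, past the end of most of these genes, 13 and 7 gene-summit pairs were counted. For other protein-coding genes the highest bin was the first 250 bp downstream, with 23% and 20.9% of the gene-summit pairs.

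Divergent pairs were neighbouring genes that face away from each other with starts at most 1 kb apart. There were 10, with starts 194 to 979 bp apart and a median of 242 bp; 9 joined an H2A and an H2B gene and the other was H3C7/H2BC9. All but H2AC1/H2BC1 had a peak in each list. The highest fold enrichments at a pair, which can come from different peaks in each list, were 8.36 and 2.74 at H2BC8/H2AC8, 7.72 and 5.10 at H2AC14/H2BC14, and 5.95 and 5.80 at H2BC13/H2AC13. They were 5.09 and 7.28 at H2AC7/H2BC7, 4.49 and 6.24 at H2BC11/H2AC11, and 4.23 and 4.65 at H3C7/H2BC9. The remaining pairs had 4.50 and 3.13 (H2AC17/H2BC17), 3.63 and 3.60 (H2BC4/H2AC6) and 3.22 and 5.73 (H2AC15/H2BC15).

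The shared space between the starts, 3.06 kb over all pairs, held 1 summit in each replicate. Of 16 summits at the pairs in replicate 1, 1 lay between the starts, 1 inside a gene and 14 outside the pair. Of 13 in replicate 2, these counts were 1, 2 and 10. The summit between the starts was at H3C7/H2BC9 in each replicate, the pair with starts 979 bp apart. In the other 9 pairs this space is at most 248 bp wide, and over all pairs it held 0.327 summits per kb in each replicate. The 1 kb on either side of the short histone genes held 0.508 and 0.559 per kb, and those genes themselves 0.0796 and 0.119. With so short a space and 1 summit, a lack of summits there cannot be judged. The nearest end was the 3′ end for 86.7% of 15 and 75% of 12 summits at paired genes, and for 50% of 24 and 46.7% of 30 at unpaired genes. Of the ends of a pair, the nearest to a summit outside it is always a 3′ end. This contrast is thus largely set by the layout of the genes, and nothing is read from it. A peak in each list was found for 14 of 20 paired genes (70%) and 25 of 35 unpaired genes (71.4%).

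**Figure D5:**
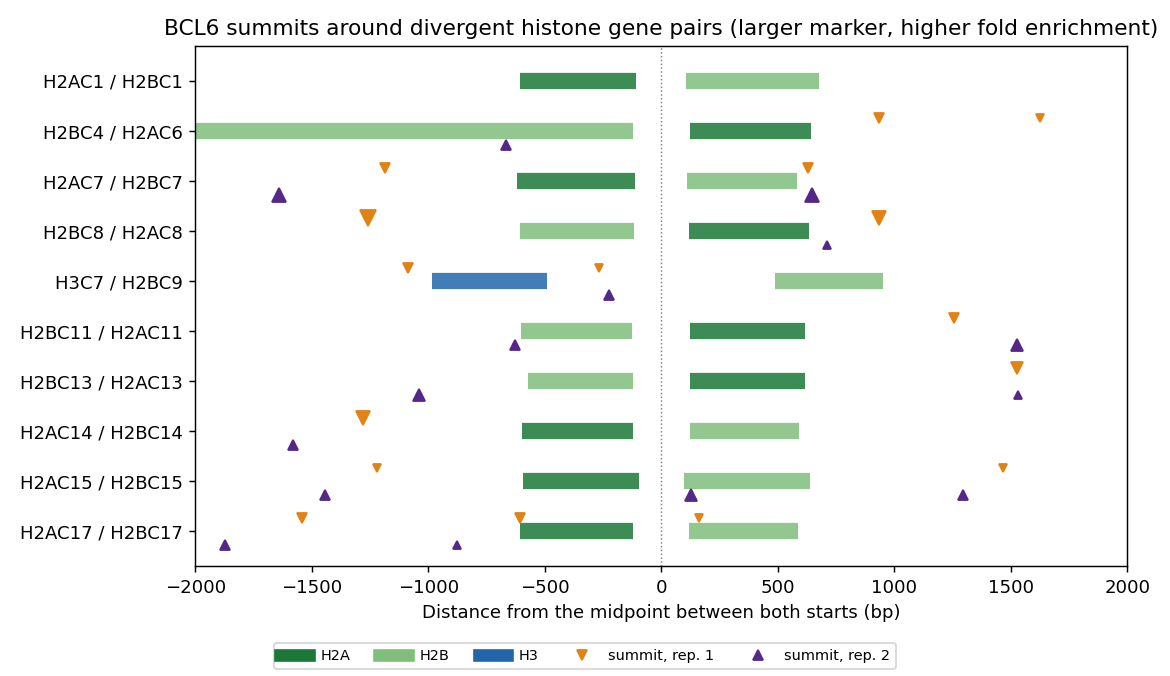
BCL6 summits around the 10 divergent pairs, in bp from the midpoint between both starts. Bars are genes by class, downward triangles are summits of replicate 1 and upward triangles summits of replicate 2, larger where the fold enrichment is higher; summits that belong to a further neighbour are drawn too. Only H3C7/H2BC9 has a summit between the starts, and most summits lie beyond the outer ends of the pairs.

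Genes around and related to the clusters were counted with the same window. Of 19 other protein-coding genes of the same interval, only HMGN4, a nucleosome-binding protein, had a peak in each list (5.26%, beside 2.79% of all protein-coding genes), with fold enrichments of 3.34 and 3.88. Of 15 replication-dependent histone genes elsewhere, 5 did (33.3%). These were H4C15 (11 and 6.65) and H2BC21 (5.14 and 7.36) on chromosome 1, H4C16 (5.21 and 4.30) on chromosome 12, and H2AC20 and H2AC21 on chromosome 1, which share a peak. The chromosome 1 genes include duplicated copies, so their values are uncertain in the same way. Of 13 replication-independent histone variants, 0 had a peak in each list, while 3 had a peak in replicate 2 alone.

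The factors that transcribe histone genes and process their mRNAs were counted next. Of 33 genes, 7 (21.2%) had a peak in replicate 1, 7 (21.2%) in replicate 2 and 1 (3.03%) in each list, beside 8.4%, 6.27% and 2.79% of all protein-coding genes. The gene with a peak in each list was NFYA, a subunit of the CCAAT-binding factor, with 3.59 and 3.24. Of 18 histone chaperones, which carry histones to DNA, 4 (22.2%) had a peak in replicate 1, 4 in replicate 2 and 3 (16.7%) in each list. CABIN1, a subunit of the HIRA chaperone complex, had 8.58 and 5.50, NASP, a carrier of H3 and H4, 3.05 and 3.10, and SUPT16H, a subunit of FACT, 3.61 and 2.93. NPAT, SLBP, which binds the histone stem-loop, and CASP8AP2, known as FLASH, had no summit within 1 kb in either list.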

How the data were processed

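BCL6 CUT&RUN peak lists of SUDHL5 cells were analysed, with groups and replicate numbers taken from the sample titles. The submitters' processing notes name Bowtie2, MACS2, SAMtools, Picard, cutadapt, FastQC, deepTools and bedtools, and the build hg38. Not given in the sources used here are versions, settings, the handling of reads that map to several places and the control used for calling. Solved backgrounds recurred at the same values, such as 5.90 and 10.8 in replicate 1 and 3.71 and 5.19 in replicate 2. Whether they come from a control library was not tested. If so, the authors' fold enrichment and the local background given here depend on that library. Peaks were called per sample. The deposited lists give, per peak, the authors' fold enrichment (a ratio), −log10 of p and of q, an integer score that was not used, and the summit position. The smallest deposited −log10 q was 1.31 in each list.

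Genes, strands and promoters came from RefSeq tables of GRCh38.p14, the assembly of hg38, and coordinates are 1-based. H2BC4, H2BC5, H2BC12, H3C4 and H3C6 have long annotated spans. For profiles and motifs the start of a gene was that of its RefSeq promoter, and the one nearest the 3′ end where several are listed. Elsewhere the start was the 5′ end of the annotated span, which can be a different place in genes with long spans. Peaks that overlapped by at least 1 bp were joined into merged regions. The pileup k and background b were solved from fold enrichment (k + 1) / (b + 1) and the Poisson tail. All 95 histone gene peaks gave a whole pileup within a tolerance of 0.001 on the −log10 p scale. Poisson intervals cover counting error only, and PCR copies are not separate molecules.

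Members and lists were chosen with earlier results of these data known. Values are given in full for the 10 genes with the largest smaller fold enrichment. Others with a peak in each list are named by class, and up to 3 genes per class with a peak in 1 list or per comparison list are named with values. The comparisons with short genes, tRNA genes and pseudogenes and the identity of promoters were chosen after seeing the data. H4-16, H2AW and H2BU1 were matched as H4C16, H2AC25 and H2BC26. The assignment and the pileup solution were tested on simulated data. Alternatives were other windows, −log10 q minimums, starts only, stricter overlap and leaving out each replicate. Python 3.11.15, pandas 2.3.3, numpy 2.4.6 and scipy 1.17.1 were used. No sequence of the peaks and no IgG values were analysed here.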

Additional observations from a re-analysis of the deposited data

How the results depend on the processing

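The count of histone genes with a peak in each list was 39, and 20 with summits within 500 bp, 22 of 50 with starts only, 16 with −log10 q of at least 10, 23 with a reciprocal overlap of 50% and 25 with summits within 200 bp. For replicate 1 the count of 40 became 25 within 500 bp, 21 at −log10 q of at least 10 and 23 with starts only. For replicate 2 the count of 44 became 28 within 500 bp and 18 at −log10 q of at least 10. The 35 genes with a shared region became 23 with the reciprocal overlap. The 9 divergent pairs with a peak in each list became 4 within 500 bp, 5 at −log10 q of at least 5 and 2 at −log10 q of at least 10. Over all protein-coding genes the count of 558 became 1000 within 5 kb, 233 at −log10 q of at least 5 and 99 at −log10 q of at least 10. The share of histone genes with a peak in each list was 36.4% within 500 bp, 29.1% at −log10 q of at least 10 and 44% with starts only, beside 1.88%, 0.496% and 2.74% of all protein-coding genes. Leaving out a replicate returned the counts of the single lists, 40 to 44 histone genes and 9 to 9 pairs. These cannot fall below the counts with a peak in each list, so nothing is read from them. The median fold enrichment was then 4.32 to 4.65, against 4.50 over both lists. The other alternatives moved these counts less. Among them, the 2 kb window gave 45 histone genes with a peak in each list, and the genes it added all encode H2B. No paired analysis was made, since the report holds no test and IgG values were not analysed here. The limits are 2 libraries of 1 cell line, read totals that are unknown, IgG values that were not analysed here, and pileups of 14 to 60 fragments at the histone gene summits.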

Other observations

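Other short genes of the same interval were counted with the same window, a comparison chosen after seeing the data. Of 98 tRNA genes of the interval, which RNA polymerase III transcribes, 9 had a BCL6 summit within 1 kb in replicate 1, 6 in replicate 2 and 5 (5.10%) in each list. Of 345 tRNA genes elsewhere, 29, 34 and 16 (4.64%) did. Of 13 histone pseudogenes of the interval, 3 had a peak in replicate 1, 5 in replicate 2 and 3 in each list. The 5 pseudogenes more than 2 kb from any of the 55 histone genes had none in either list.

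The interval as a whole held 74 peaks in replicate 1 and 70 in replicate 2. Of these, 30 and 19 had no summit within 1 kb of a histone gene. Among other protein-coding genes of the interval, ZNF322 and ZNF184, which encode zinc-finger proteins, and ABT1 had a peak in replicate 1 alone, with fold enrichments of 4.70, 3.93 and 2.48. Among histone variants, H2AJ had a peak in replicate 2 alone with a fold enrichment of 5.58, H1-10 with 3.61 and H2AZ2 with 2.10. Of the factors for histone gene transcription, TBPL1, a relative of the TATA-binding protein, had a fold enrichment of 6.63 in replicate 2 alone. HINFP, which binds site II of H4 promoters, had 4.85 in replicate 2 alone, and POU2AF1, the B-cell coactivator of octamer factors, had 3.13 in replicate 1 alone. The genes named in this paragraph were chosen after their values were seen.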
